A study of Mus musculus with 225 samples.

Results

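Core spliceosome genes were followed across single cells of the mouse forelimb at E12.5. The genes were those of the deposited normalized table whose symbols begin with Snrp, Sf3a, Sf3b, Prpf, U2af or Lsm followed by the letter or digit of a subunit, and 49 of its 10948 genes met this rule. Cells came from the autopod, which forms the hand, and from the zeugopod, which forms the forearm, of embryos heterozygous for *Hoxd11::GFP*, a tau-GFP knock-in at *Hoxd11* on a mixed C57Bl6CBAF1 background. Forelimbs of several embryos were pooled, the cells with the brightest GFP were sorted, and polyadenylated RNA of each captured cell was turned into cDNA with the SMARTer kit, so the cells are a sample chosen by GFP and not of the whole limb. Of 225 sequenced cells the normalized table retains 199, which are 76 autopod cells (59 of run NXT0072 and 17 of NXT0143) and zeugopod cells of NXT0142 (58) and of NXT0143 (65). Run and tissue coincide except in NXT0143. Since the labels tie no cell to an embryo, a tissue counts here as 1 pooled sample, and no test, SE or p-value was computed from cells.

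The spliceosome removes introns from pre-mRNA. It is built from small nuclear RNAs, each bound by proteins: a ring of Sm proteins sits on most of them, a related ring of LSm proteins sits on U6, U1 marks the start of the intron, U2AF and U2 with its SF3 proteins mark the end of the intron and the branch point, and PRP proteins join with U4, U5 and U6 and remodel the assembly for catalysis. Every cell that splices needs these proteins, and they are commonly treated as housekeeping genes.

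The retained autopod cells had between 187344 and 9437447 reads on genes (median 2830024.5), and the zeugopod cells between 186271 and 6801278 (median 3233736). Detection of a gene means 1 read or more. The autopod cells had 1992 to 6162 genes detected, with a median of 3684, and the zeugopod cells 1801 to 5917, with a median of 3995. These reads carry no molecular identifiers. Exact binomial (Clopper-Pearson) 95% intervals are given for shares of cells. They are counted over cells of 1 pooled sample, so they cover counting error only and say nothing of differences between embryos.

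Markers, counted at 5 reads, went with the tissue labels. *Hoxd13*, which marks the autopod, had 5 reads in 65 of 76 autopod cells and in 1 zeugopod cell, and *Shox2*, a zeugopod gene, in 0 autopod and 73 zeugopod cells. The summed level of the muscle, epithelial, endothelial and macrophage lists had a median of 0 CPM in both tissues, and no cell held 3 markers of any of them. Of the 5 muscle genes, *Myod1*, *Myog* and *Myf5* reached 5 reads in 0 of 199 cells. By the rule of 3, a count of 0 allows up to 1.51% of cells with such reads. It sets no limit on cells that express the gene. *Actc1* reached 5 reads in 1 autopod and 0 zeugopod cells, and *Pax7* in 1 autopod and 15 zeugopod cells. *Krt5* of the epithelial list, *Cdh5* and *Emcn* of the endothelial list and *Aif1* of the macrophage list were also at 0. *Epcam* was the most abundant epithelial gene (2 and 9 cells) and *Csf1r* the most abundant macrophage gene (3 and 17 cells). *Kdr* and *Pecam1* led the endothelial genes with 1 and 3 and with 0 and 1 cells. *Krt14*, *Cdh1* and *Krt8* reached 5 reads in 0 autopod cells and in 5, 3 and 1 zeugopod cells, and *Cx3cr1* in 0 and 1. Of the blood genes only *Hba-x* was among the counted genes, with 5 reads in 1 autopod cell. The tendon genes *Scx* and *Tnc* had 5 reads in 6 and 2 autopod and in 35 and 41 zeugopod cells. Chondrogenic genes were common: 35 autopod and 38 zeugopod cells held 3 of the 5, their summed level had medians of 2222 and 749 CPM, and *Sox9* was the most abundant in each tissue, although *Col2a1* was in zeugopod NXT0143. The genes did not go 1 way, with 5 reads of *Sox9* in 72 autopod and 79 zeugopod cells, of *Col9a1* in 48 and 36, of *Col2a1* in 43 autopod and in 54 (NXT0142) and 58 (NXT0143) zeugopod cells, of *Acan* in 10 and 17 and of *Matn1* in 0 and 4. Their part in the results was not tested.

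No core spliceosome gene had a read in each of the 199 cells, and no cell had reads of all 49. An autopod cell had reads of 12 to 42 of the 49, with a median of 27, and a zeugopod cell of 13 to 41, with a median of 28. The tissues overlapped over nearly their whole range. By run, the medians were 27 in NXT0072 and 26 in NXT0143 for the autopod, and 30.5 in NXT0142 and 28 in NXT0143 for the zeugopod. The median autopod cell thus had reads of 55.1% of the core spliceosome genes, against 31.8% of all 10948 genes in the table, and the median zeugopod cell of 57.1% against 34.4%. After thinning each cell to 500000 reads, which left out 4 cells of either tissue, the medians were 21.5 and 23.

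**Figure D1:**
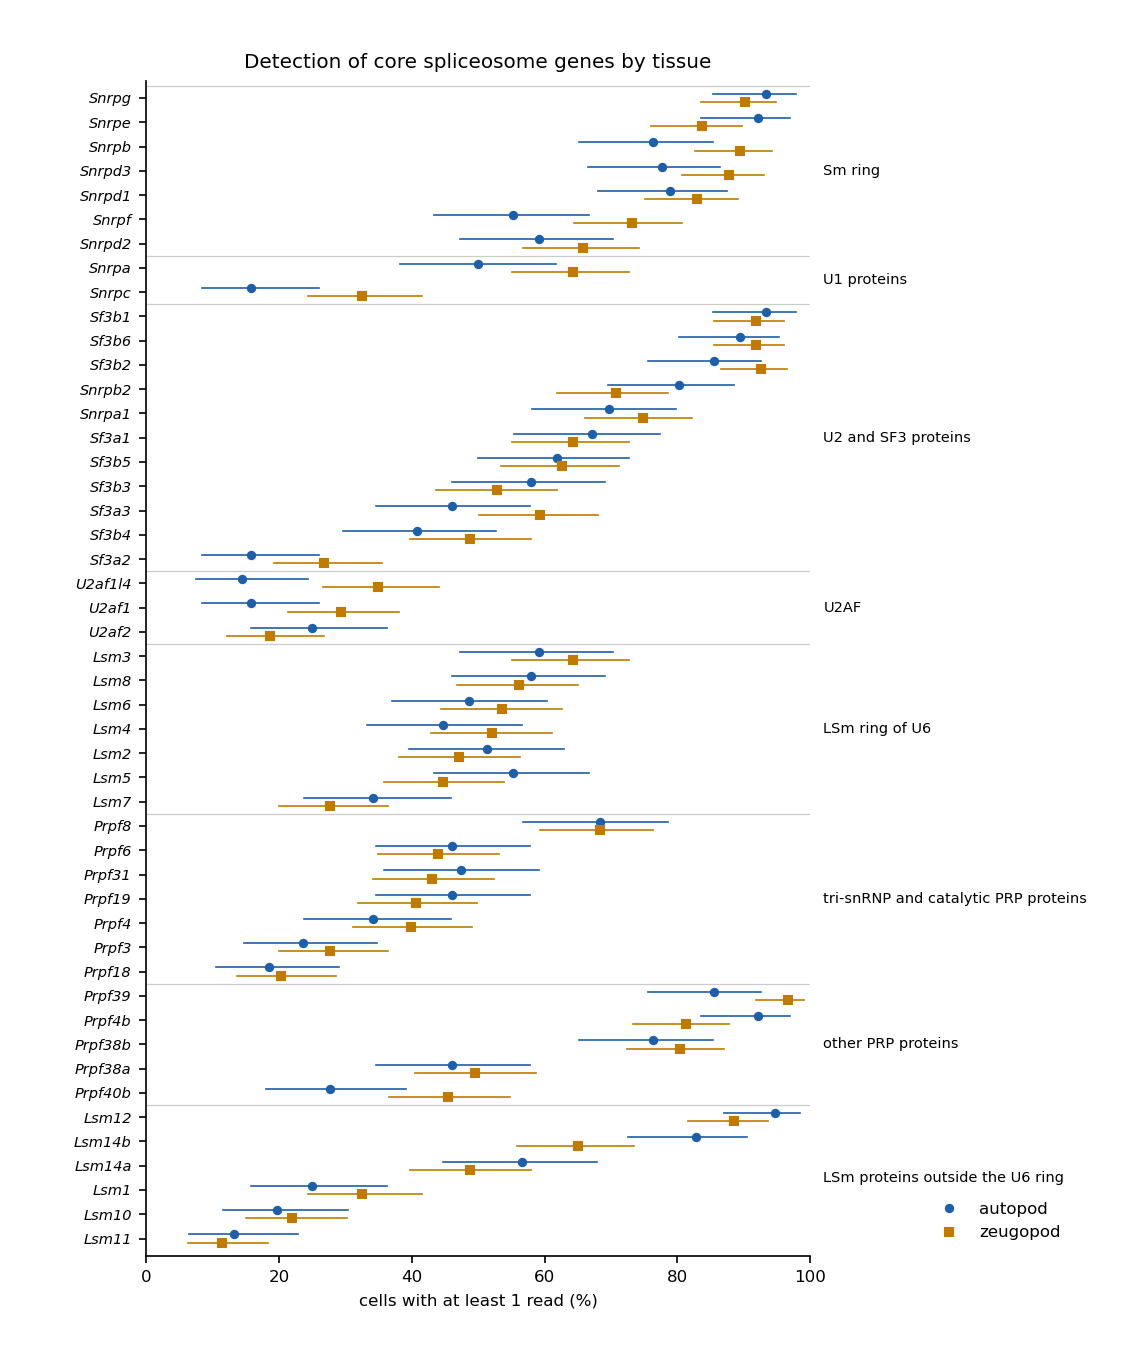
Percent of autopod cells (blue circles, 76 cells) and zeugopod cells (orange squares, 58 and 65 cells by run) with at least 1 read of each of 48 core spliceosome genes, grouped by role; lines are exact binomial 95% intervals, which cover counting error only. The autopod range was 13.2% to 94.7% and the zeugopod range 11.4% to 96.7%, and U2AF genes lay low in both.

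Detection differed more between genes than between tissues. In the autopod 15 of the 49 genes were detected in over 75% of cells, 8 in under 25% and 26 between, and in the zeugopod the numbers were 13, 4 and 32. Over all genes of the table, 5.96% in the autopod and 7.24% in the zeugopod passed 75% of cells. The median core spliceosome gene was detected in 55.3% of autopod and 56.1% of zeugopod cells, beside 26.3% and 28.5% for the median gene of the table. A cell without a read is not a cell without the protein, and at this depth absence and low expression cannot be told apart.

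The Sm ring, the set of proteins shared by the snRNPs of the major spliceosome other than U6, was among the roles detected most often. Its 7 genes were found in a median of 77.6% of autopod and 83.7% of zeugopod cells. *Snrpg* (ENSMUSG00000057278, chr6:86371304-86379328 in GRCm38) led with 93.4% of autopod cells (interval 85.3% to 97.8%) and 90.2% of zeugopod cells (83.6% to 94.9%), and *Snrpe* was next over all cells with 92.1% and 83.7%, although *Snrpb* (89.4%) and *Snrpd3* (87.8%) were above it in the zeugopod. *Snrpd2* was lowest over all cells, with 59.2% and 65.9%, although *Snrpf* was lower in the autopod, with 55.3%. Many *Snrpg* detections rested on few reads, since 36.8% of the cells that had any had fewer than 5, whereas for *Snrpb* this share was 2.98%.

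The U1 proteins mark the start of the intron. *Snrpa*, which binds a stem-loop of U1 RNA, was detected in 50% of autopod cells (38.3% to 61.7%) and 64.2% of zeugopod cells (55.1% to 72.7%). *Snrpc*, which steadies the pairing of U1 with the intron, was detected in 15.8% (8.43% to 26%) and 32.5% (24.4% to 41.5%), and 59.6% of its detections were of fewer than 5 reads.

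U2 and the SF3 proteins bind the branch point and took the largest part of the reads. The 11 genes of this role held 51% of all reads on core spliceosome genes in the autopod and 40.3% in the zeugopod. *Sf3b1* (ENSMUSG00000025982, chr1:54985169-55027481), the SF3b scaffold, was the member with the most reads in both tissues, at 13.5% and 9.56% of them over both runs, although *Sf3b2* had more in autopod NXT0143 (13.2% against 11.9%) and in zeugopod NXT0142 (8.35% against 7.38%). *Sf3b1* was detected in 93.4% and 91.9% of cells. *Sf3b6*, the small subunit at the branch point adenosine, was found in 89.5% and 91.9%, and *Sf3b2*, another SF3b subunit, in 85.5% and 92.7%. *Sf3a2*, of the SF3a complex, was the lowest with 15.8% and 26.8%.

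The U2AF genes stood at the low end. *U2af1*, whose protein reads the end of the intron, was detected in 15.8% of autopod cells (8.43% to 26%) and 29.3% of zeugopod cells (21.4% to 38.2%), *U2af2*, which binds the polypyrimidine tract, in 25% and 18.7%, and *U2af1l4*, a paralog of *U2af1*, in 14.5% (7.45% to 24.4%) and 35% (26.6% to 44.1%). *U2af1* is hard to count with reads placed uniquely. Of the 75-base windows of the longest *U2af1* transcript, 53.9% occur also in 3 annotated pseudogenes. For *U2af1l4* 97.2% occur in 2 other annotated genes, which are not pseudogenes. *Gm49396* shares 65.6% of the *U2af1l4* exon bases on the same strand. A low share of cells for *U2af1* is therefore uncertain, whereas only 13% of *U2af2* windows are shared.

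The LSm ring of U6 lay in the middle. Its 7 genes were detected in a median of 51.3% of autopod and 52% of zeugopod cells, from 34.2% and 27.6% for *Lsm7* to 59.2% and 64.2% for *Lsm3*, with *Lsm8*, the subunit that sets this ring apart from the cytoplasmic one, at 57.9% and 56.1%.

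Among the PRP proteins of the tri-snRNP and the catalytic core, *Prpf8*, the scaffold of the active site, was detected most often, in 68.4% of autopod and 68.3% of zeugopod cells. *Prpf6*, which bridges the particles of the tri-snRNP, and *Prpf31*, which binds U4, were both found in 89 of the 199 cells, with 46.1% and 43.9% for *Prpf6* and 47.4% and 43.1% for *Prpf31*, and *Prpf18*, a factor of the later catalytic step, was lowest with 18.4% and 20.3%. The other PRP proteins were detected far more often, with medians of 80.9% in both tissues. *Prpf39*, a U1-associated protein, was found in 85.5% (75.6% to 92.5%) and 96.7% (91.9% to 99.1%) of cells, and *Prpf40b*, the least often detected of them, in 27.6% (18% to 39.1%) and 45.5% (36.5% to 54.7%). By run *Prpf39* was in 81.4% (NXT0072) and 100% (NXT0143) of autopod cells, and in 96.6% (NXT0142) and 96.9% (NXT0143) of zeugopod cells. *Prpf40b* was in 22% and 47.1% of autopod and in 39.7% and 50.8% of zeugopod cells, in the same order of runs.

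The rule also takes in LSm proteins that act outside the U6 ring, in mRNA decay, translation or histone mRNA processing. They ranged widely. *Lsm12* was detected in 94.7% and 88.6% of cells, *Lsm14b*, a cytoplasmic mRNA-binding protein, in 82.9% (72.5% to 90.6%) of autopod and 65% (55.9% to 73.4%) of zeugopod cells, and *Lsm11*, a subunit of the U7 particle for histone mRNA, in 13.2% and 11.4%. Without these 6 genes the median number detected was 24 in autopod and 25 in zeugopod cells.

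Levels were read as the deposited normalized value, which is per kb of gene, so that genes can be set side by side. It has a floor of 1 divided by the length in kb, where cells without a read sit. Some cells with a read sit there too, so a median on the floor does not mean that most cells had no read. The median value over cells lay on that floor for 23 of the 49 genes in the autopod and 24 in the zeugopod. By the mean of log2(value + 1), the highest member in the autopod was *Sf3b6* at 8.02 (SD over cells 3.59), and in the zeugopod *Sf3b2* at 7.09 (SD 3.42). The autopod rank is that of NXT0072, where *Sf3b6* was at 8.58, while in autopod NXT0143 it was at 6.09 and *Sf3b2* highest at 7.74. *Sf3b2* was highest in both zeugopod runs, at 7.18 and 6.999. The length behind the value was 39.2% of the annotated exon length for *Sf3b6* and 47.7% for *Sf3b2*, so these ranks depend on the annotation. The SDs describe cells of 1 pooled sample.

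*Sf3b6* had a median normalized value of 269 and a highest of 13169 in autopod cells, and 153 and 5857 in zeugopod cells. *Sf3b1* had 80.6 and 2561 in the autopod and 72.5 and 1021 in the zeugopod. *Snrpg* had medians of 42.3 and 14.1 and highest values of 239 and 172 above a floor of 2.82, from 1412 and 754 reads in all. Cells thus ranged from the floor to values far above the median. The floor differs between genes, so spreads are described here and genes are not ranked by them.

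*Lsm3* had a median of 11.5 over all autopod cells and of 1368 over the 38 with at least 5 reads, but by run these were 148 and 1563 (33 cells) in NXT0072 and 0.792, its floor, and 106.2 (5 cells) in NXT0143. *Lsm4*, another subunit of the U6 ring, had its median over both runs at the floor of 0.958 in each tissue, with 1.92 in NXT0072 and 62.7 in NXT0142, but reached 120.7 over the 23 autopod and 584 over the 58 zeugopod cells with at least 5 reads. Of the 34 autopod cells with any read of *Lsm4*, the other 11 had 1 to 4. Across the 49 genes the SD of log2(value + 1) over autopod cells ran from 0.66 to 4.69, with a median of 3.06, and over zeugopod cells from 0.79 to 4.23, with a median of 2.85. The length behind the deposited value was below 75% of the exon length annotated in GENCODE for 15 members, down to 14.9% for *Snrpf*, so levels of these members relative to the others depend on the annotation that set the length.

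**Figure D2:**
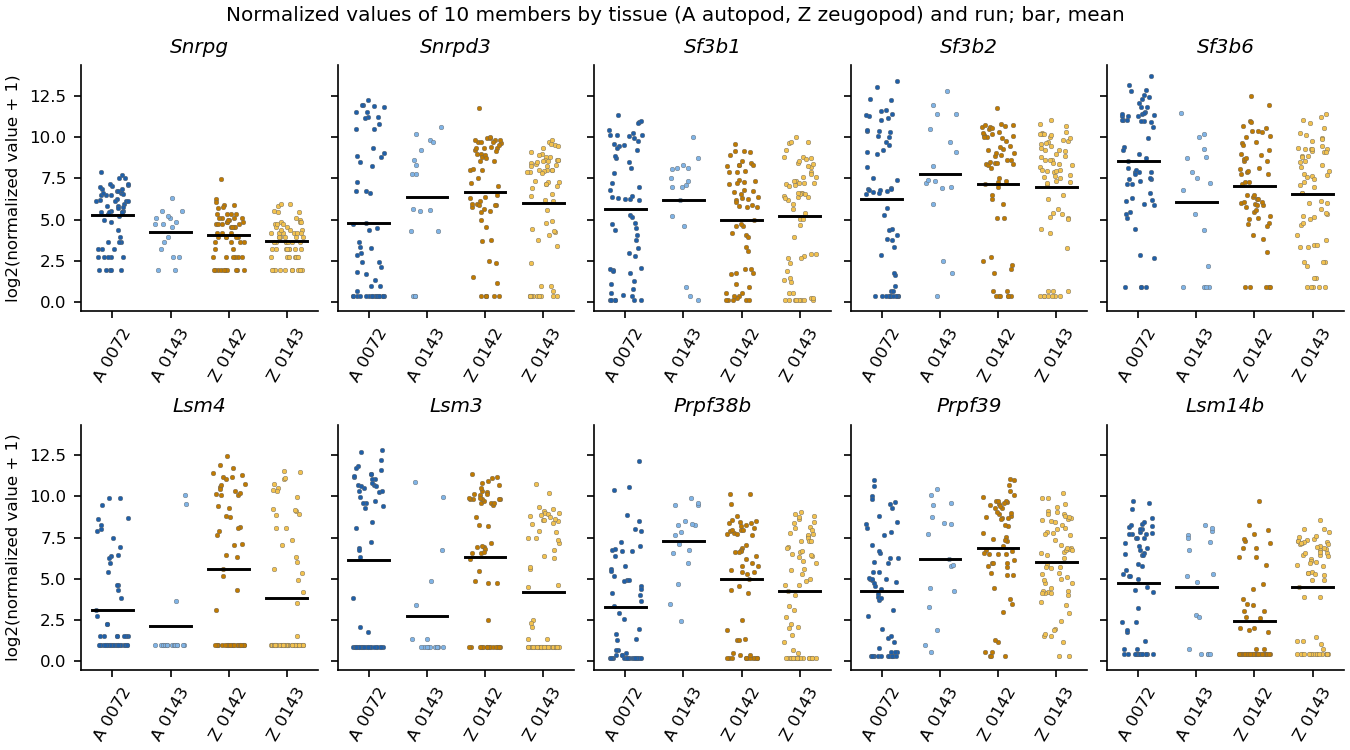
Log2(normalized value + 1) of 10 core spliceosome genes in each retained cell, by tissue (A, autopod; Z, zeugopod) and run (named by the digits of NXT0072, NXT0142 and NXT0143); points are cells and bars are means. The lowest row of points in each panel is the floor, where cells without a read lie and, for some genes, also cells with a read. *Lsm3* and *Lsm4* have cells at the floor and cells far above it, and *Prpf38b* in autopod cells of NXT0143 has none at the floor.

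Reads on the 49 genes made up 0.0883% to 1.75% of the reads on genes in an autopod cell, with a median of 0.635%, and 0.116% to 1.27% in a zeugopod cell, with a median of 0.557%. By run the medians were 0.644% in NXT0072 and 0.619% in NXT0143 for the autopod, and 0.538% in NXT0142 and 0.565% in NXT0143 for the zeugopod. Summed over cells the shares were 0.661% and 0.579%, and within NXT0143 0.602% and 0.597%. The autopod medians lay above the zeugopod medians in each run, within a spread over cells that was many times wider than the gap.

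The number of core spliceosome genes detected followed the number of other genes detected. The Spearman coefficient was 0.820 over 76 autopod cells and 0.816 over the zeugopod cells. It was 0.835 in autopod NXT0072, 0.861 in autopod NXT0143, 0.863 in zeugopod NXT0142 and 0.736 in zeugopod NXT0143. Points of such a coefficient share the depth and the RNA content of the same library. Both counts are made from the same cell, and after thinning to 500000 reads the coefficients were 0.803 and 0.793, with 4 cells of either tissue left out, close to the values before thinning.

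**Figure D3:**
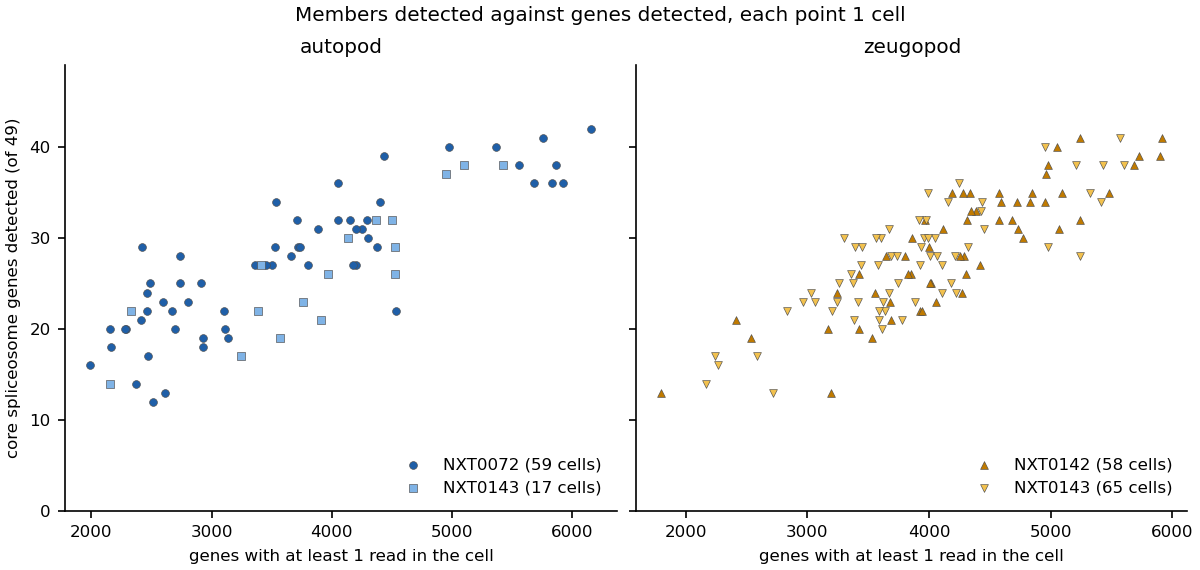
Number of the 49 core spliceosome genes with at least 1 read against the number of all genes with at least 1 read, 1 point per retained cell, by tissue and run. In both tissues the counts rise together, with 12 and 13 members in the lowest autopod and zeugopod cell and 42 and 41 in the highest.

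The share of reads on these genes followed the genes detected much less, with coefficients of 0.214 in the autopod (0.204 in NXT0072, 0.529 in NXT0143) and 0.158 in the zeugopod (0.304 in NXT0142, 0.110 in NXT0143). Gene by gene, the deposited normalized value of all 38 members that had 5 or more reads in 25% or more of the retained cells had a positive coefficient with genes detected in both tissues. The median was 0.430 in the autopod, beside 0.371 for the 4110 genes that pass the same filter, and 0.332 beside 0.264 in the zeugopod. In the autopod *Snrpd3*, an Sm ring subunit, stood highest at 0.778, then *Sf3b2* at 0.690 and *Snrpb*, also of the Sm ring, at 0.653, and *Prpf39* (0.182), *Prpf4* (0.163), a tri-snRNP protein, and *Lsm5* (0.1004), of the U6 ring, lowest. In the zeugopod *Snrpd1* of the Sm ring (0.558), *Sf3b5* of SF3b (0.538) and *Lsm2* of the U6 ring (0.509) stood highest, and *Prpf40b* (0.216), *Prpf38b* (0.152) and *Lsm1*, which acts in mRNA decay (0.0293), lowest. On the CPM scale, which removes the total of each cell, the member medians fell to 0.290 and 0.209, beside 0.256 and 0.175 over all genes, and 32 of the 38 in the autopod and 35 in the zeugopod were above 0, with *Snrpg* (-0.172 and -0.00458) below it in both. The share of the 4110 genes above 0 is not given, so the counts of members above 0, on either scale, are not read as particular to them.

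Cells with cell cycle transcripts had more of the genes. The 18 autopod cells with at least 5 reads of at least 3 of *Mki67*, *Top2a*, *Ccnb1* and *Cdk1* had a median of 35 core spliceosome genes and 0.868% of reads on them, against 25 and 0.567% in the other 58, with 4170.5 and 3402 genes detected. In the zeugopod the 23 such cells had 36 and 0.667%, against 27 and 0.516% in the other 100, with 5053 and 3900.5 genes detected. Within runs the medians were 33 against 25 core spliceosome genes in autopod NXT0072, 35 against 27.5 in zeugopod NXT0142 and 38 against 26.5 in zeugopod NXT0143, and autopod NXT0143 had only 2 such cells. The class is a range and not a type, since 9 autopod and 10 zeugopod cells held exactly 3 markers and 13 and 10 held just below that, and over all cells the share of reads followed the summed CPM of these markers at 0.296 in the autopod and 0.0407 in the zeugopod. Given genes detected these coefficients were 0.260 and -0.0452. By run they were 0.211 in NXT0072 and 0.467 in NXT0143 for the autopod (0.155 and 0.341 given genes detected), and 0.202 in NXT0142 and -0.0788 in NXT0143 for the zeugopod (0.0230 and -0.127).

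In autopod cells, *Hoxd* genes were called on at a normalized value of 5 or more that also reached 5% of the top *Hoxd* value in that cell. Cells with 1, 2 and 3 genes on had medians of 25, 27 and 26 core spliceosome genes (23, 27 and 14 cells), and the 9 cells with 4 on had 38, with a lowest of 27 and a highest of 42. These 9 cells also had the most genes detected, a median of 5557 with a lowest of 4177, and all came from run NXT0072, where the medians for 1, 2 and 3 genes on were 26, 27 and 22. Their share of reads on the genes, 0.692%, lay near the 0.641%, 0.628% and 0.582% of cells with 1, 2 and 3 on. Thinned to 500000 reads, which left out 2 cells with 1 gene on and 2 with 3 on, the medians were 21, 22, 23 and 31. The step at 4 depends on the call. With a value of 5 alone, the medians for 1 to 6 genes on were 23, 22, 27, 30, 36 and 37.5 (7, 19, 26, 12, 7 and 2 cells). In the zeugopod, with the first call, they were 28, 30, 28 and 26 for 1 to 4 genes on.

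*Snrpd2* (ENSMUSG00000040824, chr7:19149722-19153542), an Sm ring subunit, was read in autopod cells grouped by which *Hoxd* genes were on. It was chosen because the study had named it for a difference between such groups of these same cells, so its values here are not independent evidence of one. In the 16 cells with *Hoxd13* alone its normalized value had a median of 4.05 and ranged from 1.62 to 588, and in the 13 cells with *Hoxd13* and *Hoxd11* a median of 1.62, its floor, up to 535. In the 8 cells with *Hoxd10* to *Hoxd13* it ranged from 115.1 to 3109 with a median of 555. None of the 8 was at the floor, but the highest cells of the other groups lay above the lowest of these. *Snrpd2* was detected in 8 of 8 of them (63.1% to 100%) against 11 of 16 (41.3% to 89%) and 7 of 13 (25.1% to 80.8%). On the CPM scale the medians were 34.96, 1.94 and 0.268 in the order 8, 16 and 13 cells, with highest values of 119.3, 237 and 117.7, so the ranges overlapped there too. The 8 cells had a median of 5564 genes detected against 3139.5 and 3455, and the part of this in the *Snrpd2* values was not tested.

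Tissues were compared by the mean of log2(normalized value + 1), autopod minus zeugopod, for genes that had 5 or more reads in 25% or more of the cells of either tissue. Of the 49 members 40 passed this filter, as did 4898 of the 10948 genes. Of the 40, 4 were higher in the autopod by at least 1, beside 6.06% of all genes, and 4 were lower by at least 1, beside 13.4%. The median over the 40 was 0.06 and over all 4898 genes -0.12. Of the 40, 5 passed the filter in the zeugopod alone (*Prpf40b*, *Prpf19*, *Sf3b4*, *U2af1l4* and *Lsm1*) and *Lsm5* in the autopod alone, and such a filter favours differences toward the tissue that passes. With genes that passed in both tissues, 34 members and 3438 genes, 4 members were higher (5.90% of all genes) and 3 lower (12.9%), *U2af1l4* being the one lost, with a median of 0.10. The other 32 of the 40 lay between the bounds, and the counts in either direction read against a background of the same order.

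With normalized values the medians, and the split of calls over all genes, turned with the runs. Within NXT0143, 3 members were higher (18.4% of all genes) and 4 lower (9.21%), with medians of 0.21 over members and 0.18 over all genes. Between autopod NXT0072 and zeugopod NXT0142, 4 were higher (6.64%) and 8 lower (24.3%), with medians of -0.20 and -0.34. With CPM, 2 members were higher (15.9% of all genes) and 4 lower (14.7%) within NXT0143. The CPM member medians were -0.02 there and -0.25 between the other runs, so both lay below 0 on that scale. Over all cells, with CPM in place of the normalized value, 2 were higher (5.41%) and 7 lower (19.8%), so the split of calls leaned down and the member median turned to -0.12. That scaling moved the median of all genes by -0.17, to -0.29, and relative to the median of all genes the member median stood at 0.18 with normalized values and 0.17 with CPM. The pooled comparison and these run comparisons share cells.

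**Figure D4:**
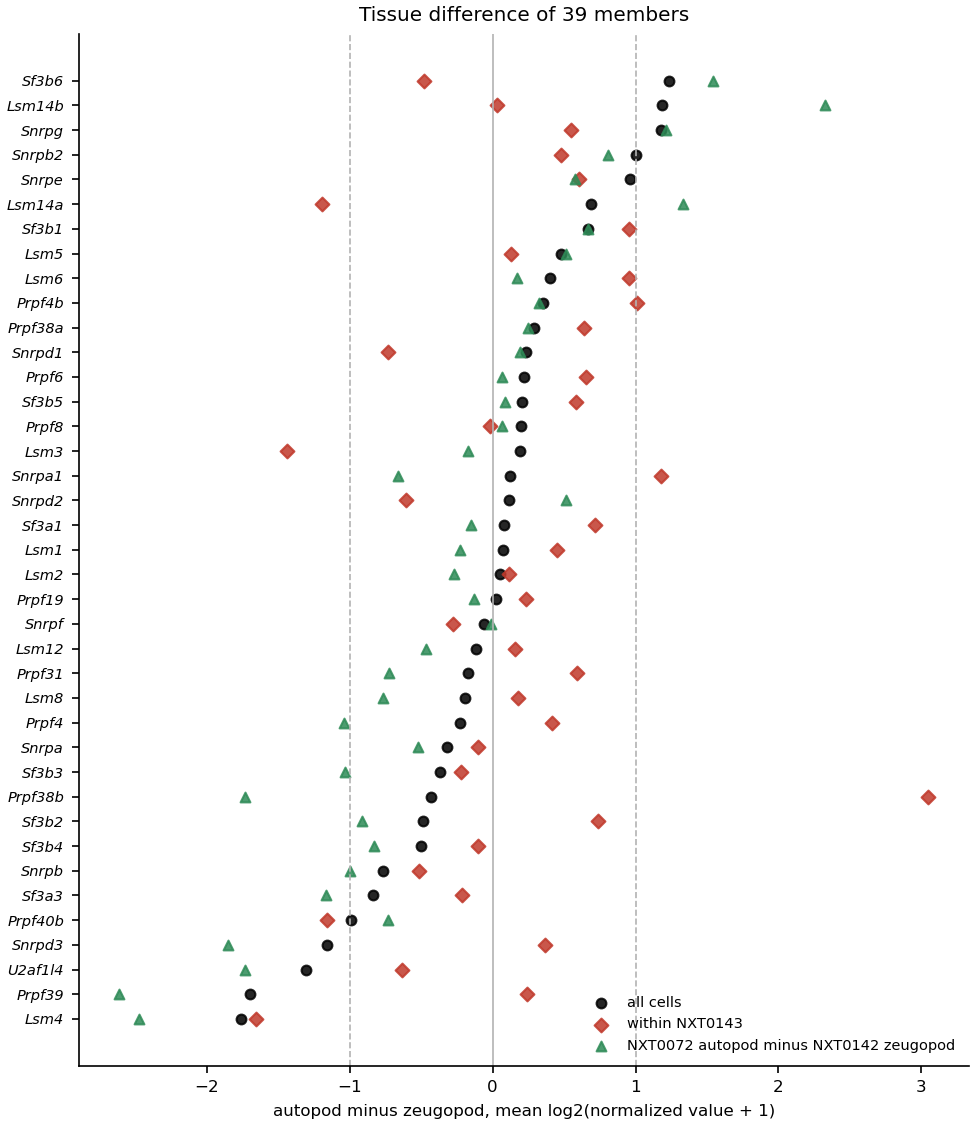
Autopod minus zeugopod difference in mean log2(normalized value + 1) of 39 core spliceosome genes that passed the filter, over all cells (black circles), within NXT0143 (red diamonds) and between autopod NXT0072 and zeugopod NXT0142 (green triangles); dashed lines mark 1 and -1. The value over all cells shares cells with the others. *Lsm4* lies below -1 in all 3, and *Prpf38b* lies at 3.05 within NXT0143 and at -1.73 between the other runs.

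Of the 40 members 20 had the same sign in all 3 comparisons. The comparisons share cells and no share over all genes is given, so this count is not read as a result about the members. *Lsm4* (chr8:70673248-70678752) was lower in the autopod in each comparison. Its mean was 2.89 for autopod and 4.64 for zeugopod cells, which differ by -1.76 over all cells, -1.65 within NXT0143 and -2.47 between the other runs, and its CPM difference was -1.74. The tissues overlapped from the floor upward, and the share of cells with a read was 44.7% (33.3% to 56.6%) against 52% (42.8% to 61.1%), and over cells with at least 5 reads the median value was 120.7 against 584. Within NXT0143 that last contrast went the other way, at 738 over only 3 autopod cells against 495 over 25 zeugopod cells.

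*U2af1l4* and *Prpf40b* passed the filter only in the zeugopod, with 5 reads in 7 and 16 autopod and 38 and 43 zeugopod cells, so the filter favoured their direction. *U2af1l4* had differences of -1.30, -0.63 and -1.74 in the order of all cells, NXT0143 and the other runs, *Prpf40b* of -0.99, -1.16 and -0.73, *Sf3a3*, of SF3a, of -0.84, -0.21 and -1.16, and *Snrpb* of -0.77, -0.51 and -0.995. In the other direction *Lsm14b* was higher by 1.19, 0.03 and 2.32, *Snrpg* by 1.18, 0.55 and 1.21, *Snrpb2*, a U2 protein, by 1.002, 0.48 and 0.81, *Snrpe* by 0.96, 0.60 and 0.58 and *Sf3b1* by 0.66, 0.96 and 0.67. On the CPM scale the differences within NXT0143 were nearer 0 for those higher in the autopod, at 0.01 for *Lsm14b* and for *Snrpg*, 0.30 for *Snrpb2*, 0.18 for *Snrpe* and 0.78 for *Sf3b1*, and further from 0 for those lower, at -0.78 for *U2af1l4*, -1.32 for *Prpf40b*, -0.68 for *Sf3a3*, -0.99 for *Snrpb* and -1.69 for *Lsm4*. The median of all genes there was -0.02 with CPM. At the bounds, *Snrpb2* at 1.002 lay just inside and *Snrpe* at 0.96 just outside, and *Snrpd3* at -1.16 inside and *Prpf40b* at -0.99 outside. For *Lsm14b*, 48.3% of zeugopod cells of NXT0142 had a read against 80% in zeugopod NXT0143 and 84.7% and 76.5% in the autopod runs.

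The other members past 1 over all cells, named here after their values were seen, had another sign within NXT0143. *Sf3b6* was 1.23 over all cells and 1.54 between NXT0072 and NXT0142, but -0.48 within NXT0143. *Prpf39* was -1.70, -2.61 and 0.24 in the order all cells, the 2 separate runs and NXT0143, and *Snrpd3* -1.16, -1.85 and 0.37. On the CPM scale *Sf3b6* was at -0.98 within NXT0143, but *Prpf39* at -0.11 and *Snrpd3* at -0.21, so for these the sign there flipped with the scaling. Outside NXT0143, which held 17 autopod cells, tissue and run cannot be told apart. Annotated exons of *Prpf39* share 599 bases with *Fkbp3* on the opposite strand, and those of *Snrpd3* share 232 with *Gucd1*. This kit does not keep strand, and the part of these bases in the values was not tested.

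Runs of the same tissue were compared in the same way. Between autopod cells of NXT0072 and NXT0143, 7 of the 40 members were higher by at least 1 in NXT0072, beside 11.8% of all genes, and 5 lower, beside 22.2%. Between zeugopod cells of NXT0142 and NXT0143, 7 were higher in NXT0142, beside 15.1%, and 1 lower, beside 1.10%. The member medians were -0.10 in the autopod and 0.48 in the zeugopod, and those of all genes -0.14 and 0.36. The widest gap of a member was that of *Prpf38b* (chr3:108902805-108911727), at -4.03 in the autopod. It was detected in 17 of 17 autopod cells of NXT0143 (80.5% to 100%), with a median value of 232, and in 41 of 59 of NXT0072 (56.1% to 80.8%), with a median of 2.87. *Lsm3* went the other way, at 3.40 in the autopod and 2.13 in the zeugopod, with 64.4% of NXT0072 and 41.2% of NXT0143 autopod cells having a read.

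Coordination was measured as the Spearman coefficient over cells of the normalized values of each pair among the 38 members that had 5 or more reads in 25% or more of the retained cells. Over the 703 pairs the median was 0.224 in the autopod and 0.153 in the zeugopod. Over all pairs of the 4110 genes that pass the same filter it was 0.151 and 0.0812, over 32 proteasome subunit genes 0.273 and 0.176, and over 43 cytosolic ribosomal protein genes 0.283 and 0.225. On this scale the member median lay above that of all pairs of genes and below both other complexes. By run the member medians were 0.244 and 0.180 in the autopod (NXT0072 and NXT0143) and 0.150 and 0.152 in the zeugopod (NXT0142 and NXT0143).

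The coefficients fell once the number of genes detected was held. Given the genes detected, as a partial rank coefficient, the member medians were 0.0541 in the autopod and 0.0375 in the zeugopod, beside 0.0178 and 0.0133 over all genes, 0.0421 and 0.0508 for the proteasome and 0.1152 and 0.101 for the ribosome. With CPM they were 0.0951 and 0.0728, beside 0.0654 and 0.0330 over all genes, 0.136 and 0.0938 for the proteasome and 0.0854 and 0.0934 for the ribosome. The order of the 3 complexes in the autopod thus changed with the scale. Coefficients of this size in sparse counts are no finding, and pairs share genes, so they are not independent.

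**Figure D5:**
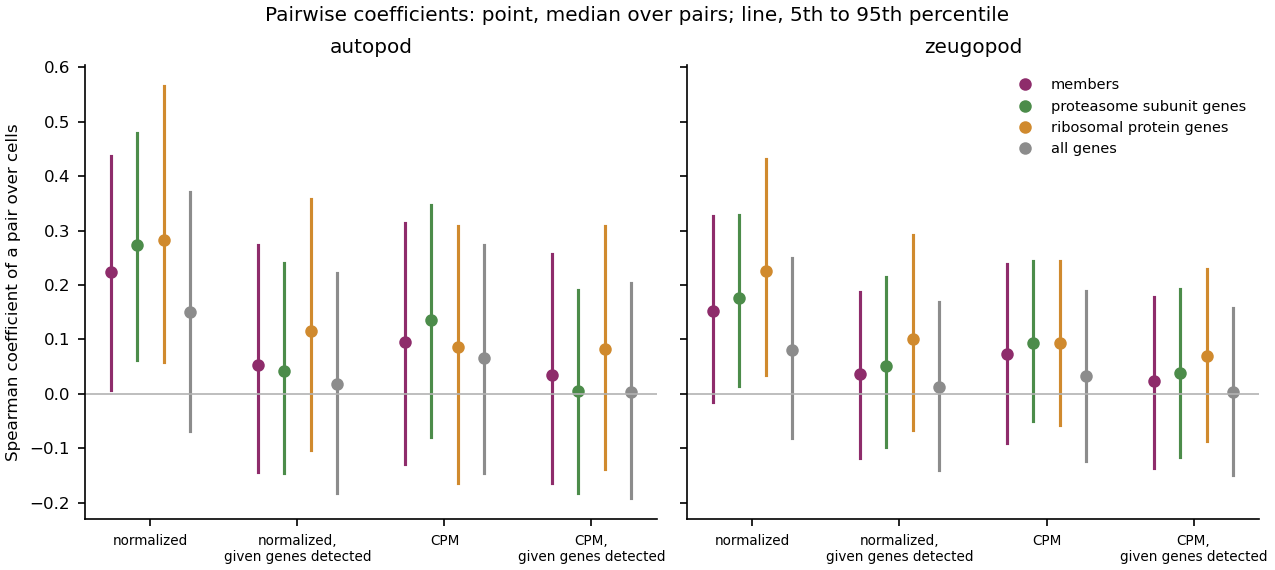
Spearman coefficients over cells for all pairs within core spliceosome genes (38), proteasome subunit genes (32), cytosolic ribosomal protein genes (43) and all genes that pass the filter (4110), on the normalized and CPM scales and given genes detected. Points are medians over pairs and lines run from the 5th to the 95th percentile of pairs; the member median of 0.224 for autopod cells is 0.0541 given genes detected, and that of 0.153 for zeugopod cells is 0.0375.

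By role, pairs within the Sm ring had medians of 0.344 for autopod and 0.254 for zeugopod cells (21 pairs), and pairs within the LSm ring of U6 0.277 and 0.253 (15 pairs). Given genes detected these were 0.158 and 0.122 for the Sm ring and 0.195 and 0.0805 for the LSm ring. Pairs of U2 and SF3 proteins were at 0.263 and 0.161 (0.0679 and 0.0348 given genes detected; 45 pairs) and of the other PRP proteins at 0.280 and 0.117 (0.0635 and 0.0798; 15 pairs), so in the autopod these stood level with the LSm ring before genes detected was held. Lowest in the autopod were the PRP proteins of the tri-snRNP and catalytic core, at 0.149 and 0.134 (-0.0437 and 0.00608 given genes detected), and the LSm proteins outside the U6 ring, at 0.0782 and 0.0498 (-0.0404 and -0.00782), with 6 pairs each. Over all roles, the pairs within a role had medians of 0.272 and 0.181, and the 595 pairs across roles 0.216 and 0.150. Given genes detected, these were 0.0726 and 0.0674 within a role and 0.0515 and 0.0342 across roles, all weak.

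The closest pairs in the autopod all held *Snrpd3* (chr10:75517551-75537381). It paired with *Sf3b2* at 0.680, with *Snrpb* at 0.645 and with *Snrpa1*, a U2 protein, at 0.583, over 76 cells. Given genes detected these were 0.314, 0.289 and 0.257. *Snrpd3* and *Sf3b2* both had at least 5 reads in 43 cells, of 51 and 61. In the zeugopod runs *Snrpd3* with *Sf3b2* was at -0.0156 (NXT0142) and 0.167 (NXT0143), beside 0.634 (NXT0072) and 0.757 (NXT0143) in the autopod, and *Snrpd3* with *Snrpa1* was at 0.180 in autopod NXT0143. In the zeugopod the closest were *Lsm2* with *Lsm3*, neighbours in the U6 ring, at 0.422, *Snrpe* with *Lsm4* at 0.405 and *Snrpd1* with *Lsm6*, of the U6 ring, at 0.399, over the cells of both zeugopod runs, and 0.233, 0.233 and 0.176 given genes detected. Given genes detected other pairs stood higher, up to 0.494 in the autopod and 0.302 in the zeugopod. *Snrpe* with *Lsm4* was at 0.159 in NXT0142 and 0.534 in NXT0143.

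Promoters of 5 members of these pairs are shown. *Snrpd3* with *Sf3b2* and with *Snrpa1* were among the closest pairs in the autopod, and *Lsm2* with *Lsm3* in the zeugopod. Other pairs among the 5 were not among the closest. These coefficients were on the normalized scale, before genes detected was held. RefSeq windows of 300 bases (GRCm38.p6), from 250 before to 50 after a start site, were matched by symbol for 39 of the 49 members, with 47 windows, and 10 had none, among them *Sf3b5*, *Lsm12*, *Snrpd1*, *Prpf18*, *Snrpb*, *Sf3b4*, *U2af2*, *Lsm1* and *Lsm4*. Capitals mark matches on either strand to the ETS core CGGAAG, the NRF1 motif CGCATGCG, the YY1 motif AAGATGGCG, CCAAT or the GC box GGGCGG; matches that overlap run together.
*Snrpd3*, chr10:75517792-75518091, plus strand: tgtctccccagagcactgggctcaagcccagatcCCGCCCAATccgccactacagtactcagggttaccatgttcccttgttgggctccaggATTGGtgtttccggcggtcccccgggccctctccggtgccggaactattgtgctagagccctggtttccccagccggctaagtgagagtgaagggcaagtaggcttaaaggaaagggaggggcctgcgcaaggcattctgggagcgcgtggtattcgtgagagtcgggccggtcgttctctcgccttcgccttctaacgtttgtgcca
*Sf3b2*, chr19:5295408-5295707, minus strand: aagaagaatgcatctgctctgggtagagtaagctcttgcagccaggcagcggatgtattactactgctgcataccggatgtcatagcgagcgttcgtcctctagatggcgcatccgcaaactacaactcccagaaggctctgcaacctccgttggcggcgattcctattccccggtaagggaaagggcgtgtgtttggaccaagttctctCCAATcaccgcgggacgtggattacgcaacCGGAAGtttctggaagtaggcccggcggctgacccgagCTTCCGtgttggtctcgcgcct
*Snrpa1*, chr7:66060086-66060385, plus strand: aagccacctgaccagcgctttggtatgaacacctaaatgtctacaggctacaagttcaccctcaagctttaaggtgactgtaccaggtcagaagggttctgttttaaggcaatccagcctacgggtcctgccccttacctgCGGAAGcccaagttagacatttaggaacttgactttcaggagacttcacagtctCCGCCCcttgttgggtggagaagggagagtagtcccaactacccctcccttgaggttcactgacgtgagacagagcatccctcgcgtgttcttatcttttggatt
*Lsm2*, chr17:34981604-34981903, plus strand: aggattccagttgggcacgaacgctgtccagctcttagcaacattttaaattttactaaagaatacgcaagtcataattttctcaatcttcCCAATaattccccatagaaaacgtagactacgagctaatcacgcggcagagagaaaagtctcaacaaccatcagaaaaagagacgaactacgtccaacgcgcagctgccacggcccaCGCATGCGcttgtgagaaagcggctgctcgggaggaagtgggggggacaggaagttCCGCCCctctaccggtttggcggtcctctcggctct
*Lsm3*, chr6:91515785-91516084, plus strand: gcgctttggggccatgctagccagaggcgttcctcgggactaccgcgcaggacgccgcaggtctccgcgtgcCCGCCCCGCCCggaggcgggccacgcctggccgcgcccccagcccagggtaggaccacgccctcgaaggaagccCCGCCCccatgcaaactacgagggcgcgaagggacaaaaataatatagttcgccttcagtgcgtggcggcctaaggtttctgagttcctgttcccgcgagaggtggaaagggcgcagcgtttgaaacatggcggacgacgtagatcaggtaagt
The *Snrpd3* window held 2 CCAAT matches and 1 GC box, of which the GC box and a CCAAT overlap, the *Sf3b2* window 2 ETS matches and 1 CCAAT, and the *Snrpa1* window 1 ETS match and 1 GC box. No motif searched was common to these 3. The *Lsm2* window held 1 NRF1 match, 1 CCAAT and 1 GC box, and the *Lsm3* window 3 GC boxes. Windows of these pairs that are not shown were a second start site of *Lsm2* (3 GC boxes) and of *Sf3b2* (2 ETS matches and 1 CCAAT), and those of *Snrpe* (4 ETS matches) and *Lsm6* (1 CCAAT and 1 GC box).

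Over the 39 matched members, 24 (61.5%) had an ETS match in a window, against 18.8% of all 27025 genes with a window and 36.7% of the 8140 that are also in the normalized table. A GC box was found for 25 (64.1%), against 38.2% and 71.2%, and CCAAT for 17 (43.6%), against 41.1% and 43.7%. The NRF1 motif was found for 2 members (5.13%, against 2.07% and 4.78%) and the YY1 motif for 3 (7.69%, against 1.64% and 4.04%). A match describes letters in the window and is neither a bound site nor a cause.

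Splicing genes outside the rule were read from lists of the same pathway. Of 44 other snRNP, helicase and Prp19-complex genes 35 passed the filter, 0 were higher by at least 1 (6.06% of all genes) and 2 lower (13.4%), with a median of 0.02. These were *Snrnp40*, a U5 protein, at -1.09 (within NXT0143 -0.71) and *Ppil1*, a spliceosomal peptidyl-prolyl isomerase, at -1.04 (-0.31). *Smn1*, which loads Sm rings onto snRNA, followed at -0.92. Within NXT0143 9 were higher (25.7%, beside 18.4% of all genes) and 0 lower (9.21%), and between the other runs 1 was higher (2.86%, beside 6.64%) and 6 lower (17.1%, beside 24.3%).

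Regulators of splice site choice were listed apart and read against the shares of all genes, which were 6.06% higher and 13.4% lower over all cells, 18.4% and 9.21% within NXT0143, and 6.64% and 24.3% between the other runs. Of the SR proteins, which bind exonic enhancers, 14 of 15 passed, 4 were higher by at least 1 (28.6%) and 1 lower (7.14%), with a median of 0.23. Within NXT0143, which held 17 autopod cells, 7 were higher (50%) and 0 lower, with a median of 0.996 beside 0.18 over all genes. On the CPM scale there, *Srsf2* (0.68), *Son* (0.93) and *Srsf11* (0.84) fell below 1. *Srsf5* (2.02), *Tra2b* (1.49), *Srrm2* (2.43) and *Srsf10* (2.03) stayed above 1, as did 15.9% of all genes on that scale. Between NXT0072 and NXT0142 1 was higher (7.14%) and 4 lower (28.6%), with a median of -0.26 beside -0.34. Of the hnRNPs 14 of 16 passed, 2 were higher (14.3%) and 0 lower, with a median of 0.13, within NXT0143 3 (21.4%) and 0, with a median of 0.14, and between the other runs 2 (14.3%) and 3 (21.4%), with a median of -0.18. *Hnrnpab* was the highest at 2.43 (1.21 within NXT0143, 2.32 between the other runs), and *Pcbp2*, a poly(C)-binding protein, was at 1.57 (1.32 and 1.51). Of the exon junction complex, which marks spliced mRNA, 6 of 7 passed, and 2 were higher (33.3%) and 0 lower over all cells and in both run comparisons, *Magoh* at 2.38 (1.62 and 2.02) and *Upf3b*, a nonsense-mediated decay factor, at 1.30 (1.33 and 1.29). Among the SR proteins, *Srsf1* (1.38), *Srsf7* (1.02) and *Srsf9* (1.25) kept their sign in both run comparisons, whereas *Srsf6* was 1.43 over all cells and -0.31 within NXT0143, and *Srsf5* -1.10 and 2.11. *Upf3b* and all SR genes named here were named after their values were seen. Over all 69 tested genes of these lists 8 were higher and 3 lower, with a median of 0.12, and with CPM 7 were higher and 8 lower (5.41% and 19.8% of all genes) and the median was -0.07.

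Positions and copies bear on which members can be read singly. The 49 genes lie on 15 chromosomes. Exons of 14 share bases with another annotated gene, for 12 of them on the opposite strand, which reads without strand cannot tell apart, and the share of exon bases passed 25% for *Snrpf*, with *Ccdc38*, and for *U2af1l4*, with *Gm49396*. For 25 members some 75-base window of the longest transcript occurs in another annotated gene, and for *Snrpf*, *U2af1*, *Sf3b4* and *U2af1l4* over 25% of windows do. Values of these 4 are uncertain.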

How the data were processed

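Single cells of the autopod and zeugopod were captured on a microfluidic chip, and their poly(A) RNA was amplified with the SMARTer kit and sequenced without molecular identifiers. The authors aligned reads with Bowtie2 (version not given in the sources used here) to mm10 (GRCm38) and deposited a table of raw count values per gene and cell and a table of normalized signal values. For the signal values the authors scaled the count values by spike-ins, centred within batch, and divided by gene length. The 199 cells of the normalized table were used, and 26 others were not compared. Spike-ins (92) were left out, and counts were read through cell names. No doublet caller was run, and no cell was removed as a doublet.

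Detection was at least 1 read, with 5 as an alternative, and CPM was computed from counts. Differences used log2(value + 1) of the signal and a difference of 1, for genes that had 5 or more reads in 25% or more of the cells of a tissue. Thinning drew 500000 reads per cell (seed 42). Intervals were Clopper-Pearson at 95%, except that the limit for a count of 0 was 3 divided by the number of cells. Coefficients were Spearman's, partial ones given genes detected. With 1 pooled sample per tissue, no test was run.

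Named genes were, per role, the 2 most and the 1 least often detected; the 5 with the largest difference each way among those with 1 direction in both run comparisons; the 3 highest and 3 lowest coefficients with genes detected; the 3 highest pairs; *Snrpd2*; and 3 other splicing genes each way. Values of 1 member enter the counts and medians but are not reported here. Lists were roles of the members, other snRNP, helicase and Prp19-complex genes, SR proteins, hnRNPs, the exon junction complex, proteasome, ribosomal proteins, and markers of autopod, zeugopod, chondrogenic, muscle, tendon, epithelial, endothelial, blood, macrophage and cycling cells. Members and lists were chosen with earlier results of these data known. Besides 31 alternative settings, 5 were added after seeing the data. Code was tested on simulated data and ran in Python 3.11.15 with pandas 2.3.3, numpy 2.4.6 and scipy 1.17.1. Annotation was GENCODE on GRCm38, and promoters were from RefSeq.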

Additional observations from a re-analysis of the deposited data

Results flagged for a closer look

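*Prpf38b*, a PRP protein, had an autopod minus zeugopod difference in mean log2(normalized value + 1) of 3.05 within NXT0143 and of -1.73 between NXT0072 and NXT0142. It drew attention because the direction was opposite in the 2 comparisons, which lie 4.78 apart. *Lsm14a*, a cytoplasmic mRNA-binding protein, was at -1.19 and 1.33, which lie -2.52 apart. Neither difference was tested.

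The 26 captured cells that the normalized table leaves out held reads of core spliceosome genes although no comparison used them. Their median was 2 members with a read (lowest 0, highest 14), and 20 of the 26 had at least 1. They had 17 to 2926028 reads on genes, with a median of 25639.5, and a median of 339 genes detected.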

How the results depend on the processing

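Of 91 values of the main results under alternatives, 59 stayed within their bounds and 32 moved. The median number of members detected, 27 in the autopod and 28 in the zeugopod, was 21 and 23 at 5 reads and 21.5 and 23 after thinning, and 24 and 25 without the LSm proteins outside the U6 ring; fewer reads or genes lower it by construction. Without *Sf3b1* the zeugopod share of reads was 0.5002%. The pairwise medians of 0.224 and 0.153 became 0.0951 and 0.0728 with CPM, 0.0541 and 0.0375 given genes detected, 0.0766 and 0.0583 thinned with CPM, and 0.0343 and 0.0236 with CPM given genes detected. The median difference over members, 0.06, was -0.12 with CPM, 0.0315 with a pseudocount of 0.1, 0.21 within NXT0143, -0.20 between NXT0072 and NXT0142, -0.15 thinned with CPM, and 0.0966 for genes that passed the filter in both tissues, where 4 were higher and 3 lower. Members higher, 4, became 2 with CPM, 1 with a pseudocount of 10 and 0 at a difference of 2. Members lower, 4, became 7, 2 and 0 in that order, and 8 between NXT0072 and NXT0142. With CPM the run medians were -0.26 in the autopod and 0.20 in the zeugopod, and other splicing genes had a median of -0.0687 and 8 lower. Cells with 1 *Hoxd* gene on had 21 members after thinning, and cells with 4 on had 30 with a value of 5 alone. Of 162 values of named genes, 39 moved, 5 that were past 1 over all cells changed sign and the others stayed. The 5 did so within NXT0143: *Snrpd3* 0.37, *Sf3b6* -0.48, *Prpf39* 0.24, *Srsf5* 2.11 and *Srsf6* -0.31. Of those that moved, *Prpf38b* (-0.43 over all cells, 3.05) and *Lsm14a* (0.69, -1.19) also changed sign there. Apart from those by construction, the cause was not tested. Depth limits what a cell without a read can say. No paired analysis was run because the labels name no embryo for a cell.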
